A study of Homo sapiens with 14 samples.

Results

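RELB silencing was set against RELA silencing in MiaPaCa2, an established human pancreatic cancer cell line, on 4 of the 14 arrays of the series. These are the 2 arrays whose labels give siRelB and the 2 whose labels give siRelA/p65 (sip65 in their titles). For each siRNA, 1 array held cells kept for 9 h in Earle's balanced salt solution (EBSS) and 1 held cells kept for 9 h in a medium labelled Mock, so the siRNAs were compared as 2 pairs, an EBSS pair and a mock pair. EBSS holds no amino acids and no growth factors; the labels also call it free of glucose, which the usual formula contains, and they do not give the composition of the mock medium. Cells had been transfected with INTERFERin, and gene expression was read from total RNA on Affymetrix whole-transcript arrays. The other 10 arrays carry a control siRNA or an siRNA against NUPR1. The 2 control arrays of the same set were not used, and 8 arrays of a separate NUPR1 set entered only through the estimate of the spread between arrays. The labels do not say that any of the arrays came from separate cultures, and none of the 12 arrays in the fit has a replicate. The SEs and p-values therefore rest on what the fitted siRNA, medium and time terms leave unexplained. Of its 4 residual degrees of freedom, 3 come from the NUPR1 set. This spread may hold technical noise as well as siRNA effects that truly change with medium or time, and the fit cannot separate them. The p-values are thus no direct measure of noise between arrays. Each value is a difference between 2 silenced states, and it does not say which siRNA moved the gene, nor whether the silenced gene or another property of the siRNA moved it; these cannot be told apart in the 4 arrays.

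RELA (p65) and RELB are DNA-binding subunits of NF-kB, a family of transcription factors that are held in the cytoplasm and released by inflammatory and stress signals. RELA pairs mostly with NFKB1 and carries the canonical pathway, in which the IkB kinase complex marks the inhibitor NFKBIA for destruction. RELB pairs mostly with NFKB2 and carries the alternative pathway, which is driven by the kinase MAP3K14, and both pathways are known to be active in pancreatic cancer cells. The series design asks whether the 2 subunits switch on different genes in starved pancreatic cancer cells, among them a survival gene that would need RELB alone.

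The siRNAs set the contrast and are shown as the protocols in the labels list them, 5′ to 3′, each followed there by dTdT. The capitals mark the run of 15 bases that the 2 listed RELB siRNAs have in common.
siRelA: gaucaauggcuacacagg
siRelB: GGAUUUGCCGAAUUAacaa
siRelB#2: cugcGGAUUUGCCGAAUUAuu
The listed RELA siRNA has 18 bases with a GC content of 50%, siRelB has 19 with 36.8% and siRelB#2 has 21 with 42.9%. The longest run that either RELB siRNA shares with the RELA siRNA is 3 bases. The labels do not say which of the 2 RELB siRNAs was on the arrays, and since these overlap they would not be independent reagents.

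Levels are log2 values, differences are siRelB minus siRelA on the log2 scale, and a positive difference means more RNA with siRelB than with siRelA. The medians of the 4 arrays over all gene clusters lay between 5.76 and 5.84. Across genes, which are not independent replicates, the arrays of a medium correlated at r = 0.979 (EBSS) and 0.975 (mock), and arrays of different media at 0.922 to 0.940. The keratin genes KRT8 and KRT18, which mark epithelial cells, had mean levels of 12.8 and 13.02, while the epithelial adhesion genes EPCAM and CDH1 were dim at 3.63 and 4.69, under the level of 5.805 below which genes were not tested. Of 9 leukocyte markers 2 lay above that level, CD68 at 8.45 and CD14 at 6.05, while PTPRC, the marker of all leukocytes, was at 2.70. Of 10 fibroblast markers 4 lay above it, COL1A2 at 10.3, ACTA2 at 7.91, COL1A1 at 7.02 and COL3A1 at 6.396, while DCN was at 2.96. COL1A2 was lower with siRelB, as given below. The summed level of the 9 epithelial markers was 72.9 and 71.9 in EBSS and 69.4 and 69.2 in mock, for siRelA and siRelB. The 10 fibroblast markers summed to 54.1 and 53.1 in EBSS and to 52.4 and 53.1 in mock, and the 9 leukocyte markers to 47.997 and 46.5 and to 46.4 and 45.2.

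Of 11026 genes tested, 1069 (9.7%) differed between siRelB and siRelA at a Benjamini-Hochberg adjusted p under 0.05 in limma. Of these, 578 (5.24%) were higher and 491 (4.45%) lower with siRelB, and 38 and 22 of them were at least 2-fold apart. In 1066 of the 1069 the EBSS pair and the mock pair had the same sign, against 64.8% of all tested genes. Calls were made on the mean of the 2 pairs, which favours genes whose pairs agree. The share among called genes is therefore no measure of reproducibility between media. Across all tested genes the differences of the 2 pairs correlated at r = 0.567 (Spearman rho 0.487), a description across genes of pairs that share no array. The median difference over all tested genes was -0.01. Single pairs rest on 1 array against 1 and were not tested: in EBSS 37 genes (0.336%) were at least 2-fold higher and 26 (0.236%) lower with siRelB, and in mock 62 (0.562%) and 34 (0.308%). Leaving out 1 array leaves a single pair: the count was 416 without the siRelA EBSS array, 416 without the siRelB EBSS array, 246 without the siRelA mock array and 249 without the siRelB mock array. Of 106 named genes past the threshold, 31 stayed past it in every alternative run, and 51 lost the call only in such single-pair fits. Where a call described below was lost, the text names the runs or gives the largest adjusted p of the alternatives. CHORDC1, HSPA4, HSPA4L, H2BC4, H3C10, UTP15 and DDX10 are among the 106, lost the call in some runs and are not described further.

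**Figure D1:**
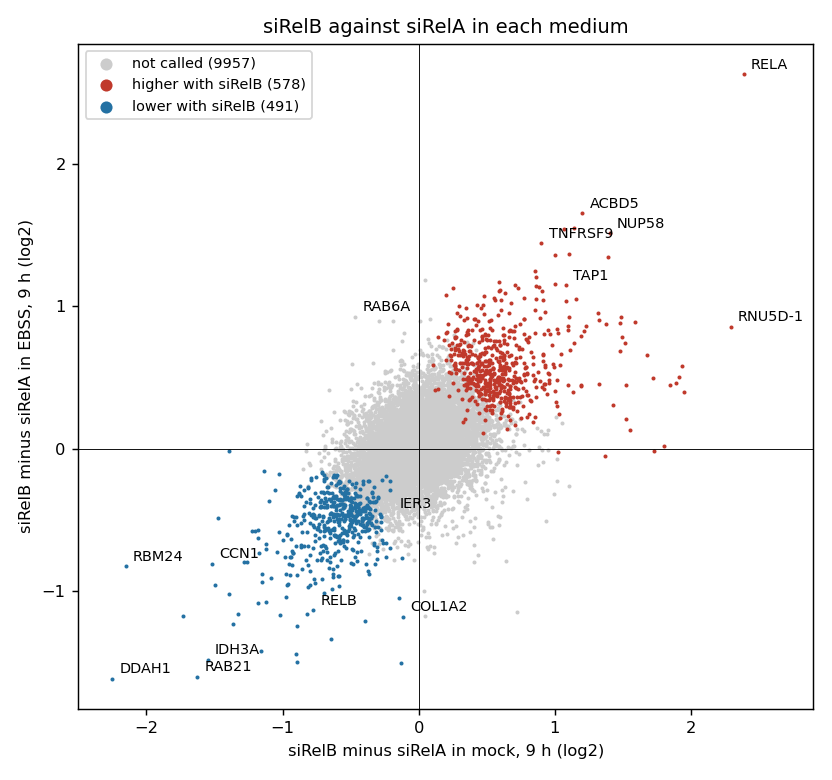
Difference between siRelB and siRelA in the mock pair (x axis) against that in the EBSS pair (y axis), in log2 units, for the 11026 tested genes. Each point is a gene, 578 higher (red) and 491 lower (blue) with siRelB past an adjusted p of 0.05; RELA stands alone at the upper right with 2.39 in mock and 2.63 in EBSS, DDAH1 at the lower left with -2.25 and -1.62, and RAB6A is among genes of opposite sign in the 2 media.

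The silenced subunits differed in opposite directions. RELA was at 6.56 with siRelA and 9.19 with siRelB in EBSS, and at 6.31 and 8.70 in mock. Both siRelB arrays thus lay far above both siRelA arrays, a log2 difference of 2.51 ± 0.14 (SE, n = 2 pairs; adjusted p = 3.61e-10), and the call stood in every alternative. RELB was at 7.87 with siRelA and 6.73 with siRelB in EBSS, and at 6.93 and 6.16 in mock. It was lower with siRelB within each medium, by -0.95 ± 0.16 (n = 2 pairs; adjusted p = 0.000571), although the siRelB array in EBSS lay close to the siRelA array in mock. Without the siRelA or the siRelB EBSS array only the mock pair of -0.77 remained and the call was lost, with an adjusted p of up to 0.0646. The contrast in RELA was therefore the wider of the 2 by log2 difference, and each is a ratio against the array of the other siRNA and not against unsilenced cells.

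The partner subunits did not pass the test. NFKB1, the usual partner of RELA, was at 8.41 and 8.55 in EBSS and 9.03 and 8.64 in mock with siRelA and siRelB, a difference of -0.12 ± 0.14 (adjusted p = 0.687; 95% interval -0.42 to 0.17). NFKB2, the usual partner of RELB, was at 8.31 and 8.41 in EBSS and 7.21 and 7.23 in mock, a difference of 0.06 ± 0.13 (adjusted p = 0.862; 95% interval -0.22 to 0.34). REL, the third transactivating subunit, differed by -0.01 ± 0.14 (adjusted p = 0.986). Levels of NFKB2 and REL differed more between the media than between the siRNAs.

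**Figure D2:**
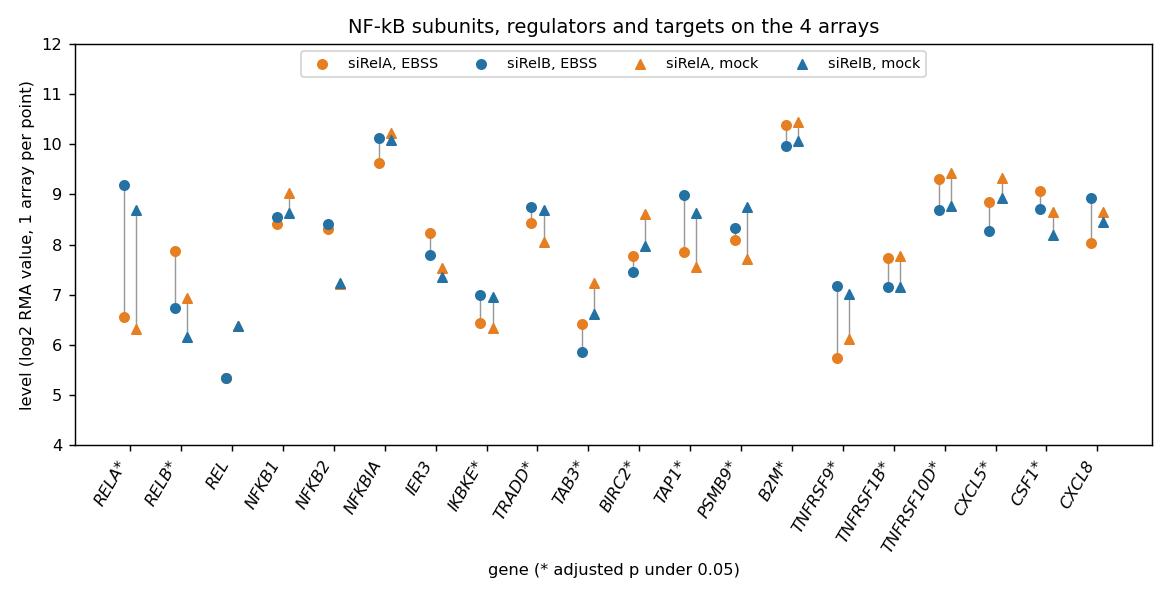
Level (log2 RMA value) of 20 NF-kB genes on each of the 4 arrays, with siRelA in orange, siRelB in blue, EBSS as circles and mock as triangles, and a line joining the arrays of a pair. An asterisk marks an adjusted p under 0.05; RELA, TAP1 and TNFRSF9 were higher with siRelB in each medium, RELB, TNFRSF10D and TNFRSF1B lower, and NFKB2 and REL nearly coincide within a medium.

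Inhibitors and feedback genes of NF-kB, which canonical signalling is known to induce, gave 0 calls in limma among 13 tested members (16 listed). Over all tested genes 9.7% were called, and with so few members 0 calls lies near that share. Of the 13 members 1 had an unadjusted p under 0.05. Their median was -0.04, with a range from -0.32 to 0.17. NFKBIA, the main inhibitor, was at 9.63 and 10.1 in EBSS and 10.2 and 10.1 in mock with siRelA and siRelB, a difference of 0.17 ± 0.14 (adjusted p = 0.521). TNFAIP3, which encodes the A20 deubiquitinase, was too dim to be tested. The member with the lowest value was IER3, an immediate early gene with a part in cell survival, whose own siRNA the protocols list and none of the 4 arrays carried. IER3 was at 8.24 with siRelA and 7.79 with siRelB in EBSS, and at 7.54 and 7.35 in mock. It was lower with siRelB in each medium, by -0.32 ± 0.13 (95% interval -0.60 to -0.04), and did not pass over all tested genes (adjusted p = 0.145). Its 3 gene clusters gave -0.32, -0.26 and -0.26. NUPR1, the stress-induced chromatin gene that the series is about, differed by -0.15 ± 0.15 (adjusted p = 0.638).

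Upstream of NF-kB, 3 of 17 tested signalling genes were higher and 2 lower with siRelB (29.4% called, beside 9.7% of all tested genes). The kinases at the head of each pathway were not among the called genes. IKBKE and TBK1, the noncanonical IkB kinases, were higher by 0.60 ± 0.14 (adjusted p = 0.00755) and 0.51 ± 0.16 (adjusted p = 0.0448). The siRelA EBSS value of TBK1 was under the level at which genes were tested. The death domain adaptor TRADD was higher by 0.48 ± 0.13. TAB3, an adaptor of the kinase MAP3K7, was lower by -0.59 ± 0.13, and BIRC2, a ubiquitin ligase of TNF receptor signalling, by -0.47 ± 0.13. IKBKB of the canonical pathway differed by 0.05 ± 0.13 and MAP3K14 of the alternative pathway by -0.30 ± 0.14 (adjusted p = 0.194). TBK1 was at 5.08 and 5.89 in EBSS and 6.71 and 6.91 in mock, so its difference sat mostly in EBSS, and its call was lost without either EBSS array and in 5 other alternatives (adjusted p up to 0.72). The other calls of this group were lost without any 1 of the 4 arrays, with adjusted p of up to 0.173 for IKBKE, 0.149 for TAB3, 0.511 for TRADD and 0.481 for BIRC2.

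Among TNF receptor family genes 1 of 15 tested was higher and 2 were lower with siRelB (20% called, beside 9.7% of all tested genes). TNFRSF9, which encodes the costimulatory receptor CD137, was at 5.73 with siRelA and 7.17 with siRelB in EBSS, and at 6.12 and 7.03 in mock. Both siRelB arrays lay above both siRelA arrays, a difference of 1.17 ± 0.15 (adjusted p = 2.76e-05) that passed in every alternative (adjusted p up to 0.0117); its siRelA EBSS value was under the level at which genes were tested. TNFRSF10D, a decoy receptor for the death ligand TRAIL, was at 9.32 and 8.69 in EBSS and 9.42 and 8.77 in mock. TNFRSF1B, a receptor for TNF, was at 7.73 and 7.16 in EBSS and 7.78 and 7.15 in mock. In each of them both siRelB arrays lay below both siRelA arrays, by -0.64 ± 0.12 (adjusted p = 0.00208) and -0.60 ± 0.13 (adjusted p = 0.0038). The TNFRSF10D call was lost without the siRelA EBSS array or either mock array (adjusted p up to 0.0819), and the TNFRSF1B call without any 1 of the 4 (up to 0.13). LTBR, a receptor that feeds the alternative pathway, differed by -0.33 ± 0.12 (adjusted p = 0.0926) and passed only without the siNupr1 9 h array in the spread (0.0361).

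Of 18 tested surface, adhesion and protease genes known as NF-kB targets, 2 were higher and 2 lower (22.2% called, beside 9.7% of all tested genes). TAP1, the peptide transporter of class I antigen presentation, was at 7.85 with siRelA and 9.00 with siRelB in EBSS, and at 7.55 and 8.64 in mock. It was higher in each medium by about the same amount, 1.11 ± 0.14 over the pairs (adjusted p = 3.2e-05), and passed in every alternative (adjusted p up to 0.00442). PSMB9, an immunoproteasome subunit, was at 8.09 and 8.33 in EBSS and 7.72 and 8.75 in mock, higher by 0.63 ± 0.16 (adjusted p = 0.0152), with most of the difference in mock; without either mock array the adjusted p was up to 0.694. TAP1 and PSMB9 have 3 clusters each on the array, which hold the same values and count as 1 measurement. B2M, the light chain of class I molecules, was lower by -0.39 ± 0.11 (10.4 and 9.96 in EBSS, 10.4 and 10.1 in mock), so the antigen presentation genes did not share a direction. TGM2, a transglutaminase, was lower by -0.55 ± 0.11. The B2M call was lost without any 1 of the 4 arrays (adjusted p up to 0.226) and the TGM2 call without either EBSS array (up to 0.103).

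Chemokine and cytokine genes gave 0 higher and 2 lower calls in limma among 20 tested (38 listed), with a median of 0.03. The called share of 10% lay near the 9.7% of all tested genes, and 4 tested members had an unadjusted p under 0.05. CXCL5, which attracts neutrophils, was at 8.86 and 8.27 in EBSS and 9.33 and 8.93 in mock, lower with siRelB by -0.49 ± 0.13 (adjusted p = 0.0177). CSF1, the macrophage growth factor, was at 9.06 and 8.71 in EBSS and 8.66 and 8.19 in mock, lower by -0.41 ± 0.13 (adjusted p = 0.0434). In both genes the siRelB array was the lower of each pair, while the siRNA groups overlapped across media. CXCL8, a neutrophil chemokine, was at 8.03 and 8.93 in EBSS and at 8.65 and 8.46 in mock, so its pairs had opposite signs (0.35 ± 0.21; adjusted p = 0.342). CSF3 differed by 0.39 ± 0.13 (adjusted p = 0.0606, and as low as 0.0278 in 5 alternatives that called it) and CXCL1 by -0.17 ± 0.17 (adjusted p = 0.632). The CXCL5 and CSF1 calls were lost without any 1 of the 4 arrays (adjusted p up to 0.276 and 0.429), and that of CSF1 also without the filter, after quantile normalization and without the intensity trend.

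Promoters of these members were read from RefSeq (GRCh38.p14, 250 bases before to 50 after the start site), and the kB-like motif GGGNNTTTCC was searched on both strands. Of the 16 called members of the 6 NF-kB lists 11 had a window, and 4 windows held the motif. These lists were made of NF-kB genes, so the motif may be common in them whatever the siRNA. The share among their uncalled members was not worked out, so the 4 windows do not tie the motif to the calls. Over all tested genes 197 of 8849 windows (2.23%) held it, against 21 of 446 (4.71%) of the genes higher and 9 of 404 (2.23%) of the genes lower with siRelB. The upstream part of the 4 windows is shown 5′ to 3′ on the strand of the gene, with the motif in capitals, for TAP1 (chr6:32853705-32853954, minus strand), TNFRSF9 (chr1:7940840-7941089, minus strand), CXCL5 (chr4:73998678-73998927, minus strand) and B2M (chr15:44711267-44711516, plus strand).
TAP1: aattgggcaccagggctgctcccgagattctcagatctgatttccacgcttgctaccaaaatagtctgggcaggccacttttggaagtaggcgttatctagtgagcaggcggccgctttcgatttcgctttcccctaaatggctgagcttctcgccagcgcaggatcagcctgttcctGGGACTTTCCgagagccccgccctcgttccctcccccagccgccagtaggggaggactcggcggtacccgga
TNFRSF9: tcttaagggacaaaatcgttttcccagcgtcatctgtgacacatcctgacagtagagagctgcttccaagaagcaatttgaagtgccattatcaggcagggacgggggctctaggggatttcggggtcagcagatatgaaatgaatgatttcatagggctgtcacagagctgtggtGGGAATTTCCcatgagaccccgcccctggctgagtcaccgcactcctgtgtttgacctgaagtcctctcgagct
CXCL5: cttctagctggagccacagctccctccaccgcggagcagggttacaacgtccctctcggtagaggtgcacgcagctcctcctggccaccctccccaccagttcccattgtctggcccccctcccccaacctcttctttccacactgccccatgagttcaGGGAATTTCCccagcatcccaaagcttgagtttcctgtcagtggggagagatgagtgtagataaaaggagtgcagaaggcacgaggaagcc
B2M: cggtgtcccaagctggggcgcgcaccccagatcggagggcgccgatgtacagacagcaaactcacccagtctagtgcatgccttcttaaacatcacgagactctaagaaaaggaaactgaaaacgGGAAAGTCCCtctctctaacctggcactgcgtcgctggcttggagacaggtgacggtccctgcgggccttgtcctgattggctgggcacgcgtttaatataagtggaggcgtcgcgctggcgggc
The motif began 72 bases before the start of TAP1, 74 before TNFRSF9, 91 before CXCL5 and, on the opposite strand, 125 before B2M. The genes with it were higher with siRelB in 2 cases and lower in 2. The windows of TAP1 and PSMB9, which lie head to head, overlap by 13 bases. A match is a description of the letters in the window, and binding was not measured.

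The largest differences lay outside the NF-kB lists. DDAH1, which degrades an inhibitor of nitric oxide synthesis, was at 9.28 with siRelA and 7.66 with siRelB in EBSS, and at 9.94 and 7.69 in mock, lower by -1.94 ± 0.14 (adjusted p = 3.4e-08). RAB21, an endosomal GTPase that traffics integrins, was at 7.995 and 6.39 in EBSS and at 8.56 and 6.93 in mock, lower by -1.61 ± 0.12. IDH3A, a subunit of the NAD-dependent isocitrate dehydrogenase of the citric acid cycle, was at 8.96 and 7.48 in EBSS and 9.76 and 8.21 in mock, lower by -1.52 ± 0.13. In these genes both siRelB arrays lay below both siRelA arrays. The other large falls were RBM24, an RNA-binding protein gene, by -1.49 ± 0.21, KCTD20 by -1.45 ± 0.14, the endosomal GTPase gene RAB22A by -1.30 ± 0.14, the phospholipid flippase gene ATP8B1 by -1.29 ± 0.14, the small GTPase gene RAP1B by -1.25 ± 0.12, the protease inhibitor gene SERPINB8 by -1.23 ± 0.13 and the ubiquitin ligase gene RNF182 by -1.21 ± 0.10. RBM24 stood out for a wide gap between its pairs, -0.83 in EBSS and -2.15 in mock. These 10 calls stood in every alternative, with RBM24 the least firm (adjusted p up to 0.0462).

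After RELA the largest rises among protein-coding genes were NUP58, ACBD5, WDR54, CTDSPL2 and RTRAF. NUP58, a nuclear pore component, was at 5.72 with siRelA and 7.23 with siRelB in EBSS, and at 6.71 and 8.11 in mock, higher by 1.46 ± 0.13 (adjusted p = 3.8e-07). ACBD5, which tethers peroxisomes to the endoplasmic reticulum, was at 5.60 and 7.26 in EBSS and at 6.59 and 7.80 in mock, higher by 1.43 ± 0.15. In both genes every siRelB array lay above every siRelA array, and both siRelA EBSS values were under the level at which genes were tested. WDR54 was higher by 1.37 ± 0.15, the phosphatase-like gene CTDSPL2 by 1.34 ± 0.13 and RTRAF, a subunit of the tRNA ligase complex, by 1.31 ± 0.12, all past the threshold in every alternative. The remaining 4 of the 10 largest rises were small RNA genes, RNU5D-1, SNORA22, SCARNA17 and SNORA75, described further on.

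**Figure D3:**
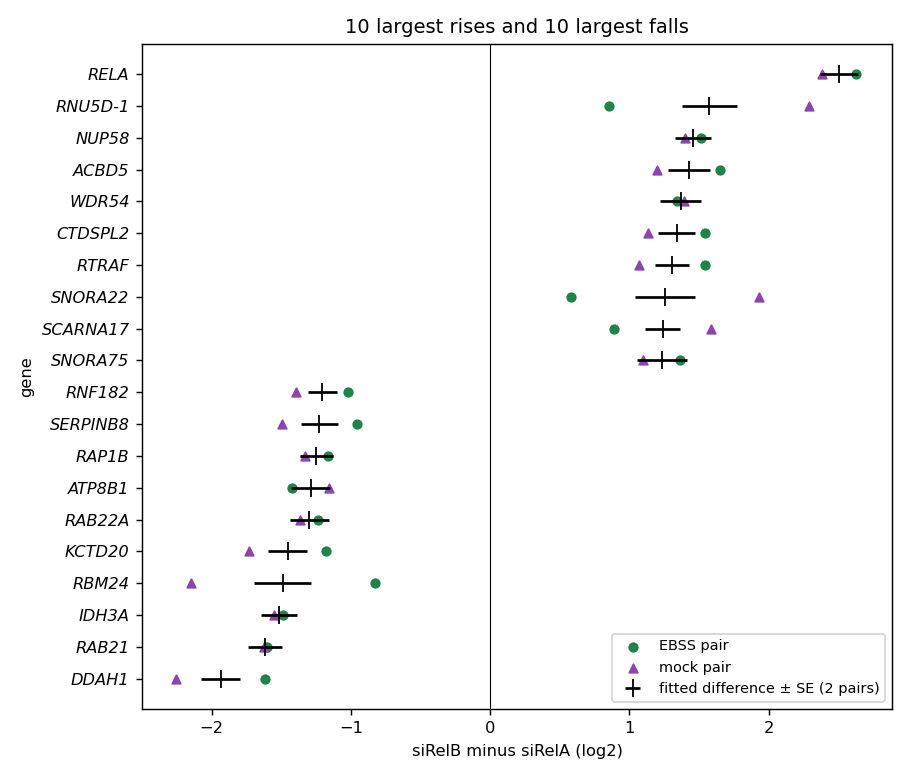
The 10 largest rises and 10 largest falls of siRelB minus siRelA, in log2 units, with the EBSS pair as a green circle, the mock pair as a purple triangle and the fitted difference ± SE (2 pairs) as a black bar. The 20 genes were picked among called genes with the same sign in each medium. RNU5D-1 (0.85 in EBSS and 2.29 in mock), SNORA22 (0.58 and 1.93) and RBM24 (-0.83 and -2.15) had the widest gaps between media.

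Genes of cell division differed in a mixed way. Of 33 tested G2/M and mitosis genes 8 were lower and 2 higher with siRelB (30.3% called, beside 9.7% of all tested genes). Their median was -0.21, beside -0.01 over all tested genes. ECT2, which starts cytokinesis, was at 8.35 with siRelA and 7.46 with siRelB in EBSS, and at 9.62 and 8.73 in mock, lower by -0.89 ± 0.14 (adjusted p = 0.000225) and called in every alternative. NUSAP1, a spindle protein gene, was lower by -0.74 ± 0.14, the contractile ring gene ANLN by -0.66 ± 0.13, and KIF23, the motor of the central spindle, by -0.63 ± 0.12. The rising members were CCNB2, a mitotic cyclin, by 0.67 ± 0.15, and CDK1, the mitotic kinase, by 0.47 ± 0.13. FOXM1, which drives mitotic genes, was lower by -0.45 ± 0.11, and the partner cyclin gene CCNB1 differed by -0.03 ± 0.11 (adjusted p = 0.925). FOXM1 and CDK1 lost the call without any 1 of the 4 arrays (adjusted p up to 0.169 and 0.279), NUSAP1 and CCNB2 without either EBSS array (adjusted p up to 0.103 and 0.4), and ANLN and KIF23 without either mock array (up to 0.179 and 0.135).

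Of 44 tested DNA replication and G1/S genes 7 were higher and 3 lower, with a median of -0.04. The called share was 22.7%, beside 9.7% of all tested genes. POLE2, a subunit of the leading-strand polymerase, was at 5.56 and 6.34 in EBSS and 6.43 and 7.24 in mock, higher by 0.80 ± 0.16 (adjusted p = 0.00286). Its siRelA EBSS value was under the level at which genes were tested. The replication origin gene ORC6 was higher by 0.69 ± 0.14 and the helicase component gene GINS3 by 0.62 ± 0.12. CCND1, the cyclin that links growth signals to the cell cycle, was at 9.42 with siRelA and 8.82 with siRelB in EBSS and at 9.78 and 8.82 in mock, lower by -0.78 ± 0.12 (adjusted p = 0.000206). The siRelB arrays gave CCND1 nearly the same level in each medium while the siRelA arrays stood above them. CDKN1B, a cyclin-dependent kinase inhibitor of another list and not among these 44, was lower by -0.43 ± 0.13. Without single arrays the adjusted p rose to 0.101 for POLE2, 0.138 for ORC6 and 0.0748 for GINS3, to 0.0559 for CCND1 without the siRelA or siRelB mock array, and to 0.618 for CDKN1B, which also failed without the filter and without the intensity trend.

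Factors and targets of YAP and TEAD, the effectors of the Hippo pathway, were lower where they passed. Of 21 tested 0 were higher and 5 lower (23.8% called, beside 9.7% of all tested genes). The median was -0.24, with -0.08 in EBSS and -0.34 in mock. None of the 21 passed the test of a difference between media that is described further on. CCN1, a matricellular protein gene that also responds to serum, was at 9.65 with siRelA and 8.84 with siRelB in EBSS, and at 9.10 and 7.58 in mock. AXL, a receptor tyrosine kinase, was at 9.74 and 8.86 in EBSS and at 9.39 and 8.24 in mock. In each of them both siRelB arrays lay below both siRelA arrays, by -1.16 ± 0.20 (adjusted p = 0.00062) and -1.02 ± 0.14 (adjusted p = 8.33e-05). ASAP1, an ARF regulator, was lower by -0.79 ± 0.11, AMOTL2, which binds YAP, by -0.82 ± 0.16 and the transcription factor TEAD4 by -0.52 ± 0.13. YAP1 differed by -0.36 ± 0.12 (adjusted p = 0.066, and as low as 0.0348 in 3 alternatives that called it) and its classical target CCN2 by -0.29 ± 0.13 (adjusted p = 0.187). The AXL and ASAP1 calls stood in every alternative, and those of CCN1, AMOTL2 and TEAD4 were lost without either mock array (adjusted p up to 0.127, 0.188 and 0.441).

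Mesenchymal and matrix genes gave 0 higher and 7 lower calls among 29 tested, with a median of -0.08. The called share was 24.1%, beside 9.7% of all tested genes. TIMP2, an inhibitor of matrix metalloproteinases, was at 11.5 with siRelA and 10.9 with siRelB in EBSS, and at 11.3 and 10.7 in mock, lower by -0.62 ± 0.08 (adjusted p = 6.05e-05) in every alternative. TGFBI, a secreted matrix protein gene, was lower by -0.74 ± 0.14, the laminin gene LAMB1 by -0.62 ± 0.15, the integrin gene ITGB1 by -0.62 ± 0.11 and the intermediate filament gene VIM by -0.32 ± 0.07. COL1A2, a collagen chain, was at 10.4 and 9.22 in EBSS and at 10.8 and 10.7 in mock, so its fall of -0.65 ± 0.16 rested on the siRelB EBSS array. COL1A2 failed under robust moderation (adjusted p = 0.0563). Without either EBSS array COL1A2 had an adjusted p of up to 0.782, LAMB1 of up to 0.404, TGFBI of up to 0.108 and VIM of up to 0.0697. VIM also failed without the intensity trend (0.113), while ITGB1 passed in every alternative. COL1A1 differed by -0.10 ± 0.14 (adjusted p = 0.743), and ZEB1, TWIST1 and SNAI1, which drive the mesenchymal state, were not called. Of 16 tested epithelial junction and keratin genes 1 was higher and 3 lower (25% called). DSG2, a desmosomal cadherin, was higher by 0.63 ± 0.14, and its siRelA EBSS value of 5.17 was under the level at which genes were tested. CLDN1 was lower by -0.50 ± 0.14, KRT8 by -0.36 ± 0.06 and KRT18 by -0.22 ± 0.06. KRT8 failed in 1 alternative, without the intensity trend (adjusted p = 0.0643). DSG2 and KRT18 were lost without any 1 of the 4 arrays (adjusted p up to 0.139 and 0.21), DSG2 also after quantile normalization, and KRT18 also in 4 other settings (up to 0.293). CLDN1 was lost without either mock array (up to 0.737) and without the filter.

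Growth factor response genes were lower where they passed, and their list medians were lower in mock than in EBSS. None of their tested members passed the test of a difference between media that is described further on. Over all tested protein-coding genes the medians were 0.01 in EBSS and -0.03 in mock. The immediate early and serum response median was -0.09 in EBSS and -0.27 in mock. That of EGF family and ERK feedback genes was 0.005 and -0.32, and that of TGF-beta, BMP and ID genes -0.07 and -0.24. In that order 14.3%, 14.3% and 15.8% of tested members were called, beside 9.7% of all tested genes. Immediate early and serum response genes gave 0 higher and 5 lower calls of 35 tested (median -0.19), EGF family and ERK feedback genes 0 and 3 of 21 (median -0.15), and TGF-beta, BMP and ID genes 0 and 3 of 19 (median -0.19). SPRED1 and SPRED2, inhibitors of RAS-ERK signalling that both of the former lists hold, were lower by -0.74 ± 0.14 (adjusted p = 0.0012) and -0.54 ± 0.12 (adjusted p = 0.00719). KLF4, a transcription factor, was at 8.11 and 7.44 in EBSS and 7.74 and 7.16 in mock, lower by -0.62 ± 0.14, and ETV5, an ERK target, was lower by -0.47 ± 0.14. ID3, which blocks differentiation factors, was lower by -0.60 ± 0.12 and the TGF-beta repressor SKI by -0.58 ± 0.15. ID2 was at 5.85 and 5.83 in EBSS and 7.55 and 6.15 in mock, so its value of -0.70 ± 0.20 came from the mock pair alone. These 7 calls were lost without at least 1 of the 4 arrays: the adjusted p reached 0.165 for SPRED1, 0.288 for SPRED2, 0.478 for SKI and 0.99 for ID2 without a mock array, and 0.132 for KLF4, 0.374 for ETV5 and 0.0941 for ID3 without any 1 of the 4. ID2 was also lost with the spread from all 14 arrays, without the filter, after quantile normalization and under robust moderation (adjusted p up to 0.0898), and ETV5 without the filter and without the intensity trend (up to 0.0664).

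**Figure D4:**
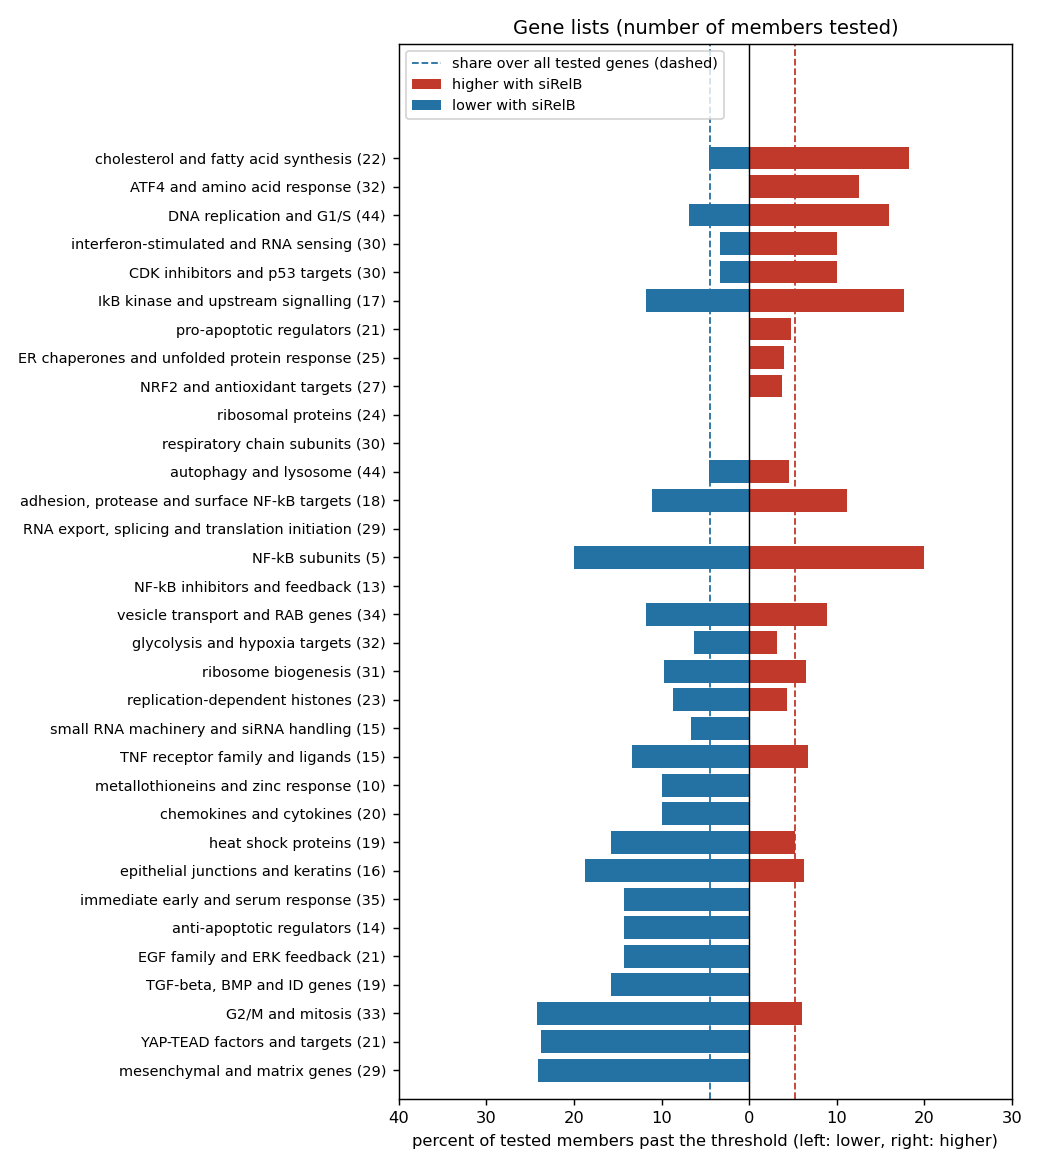
Percent of the tested members of each gene list that were higher (red, to the right) or lower (blue, to the left) with siRelB at an adjusted p under 0.05, with the number tested in brackets. Dashed lines mark the shares over all 11026 tested genes, 5.24% higher and 4.45% lower; G2/M, YAP-TEAD and mesenchymal genes lie furthest to the left, cholesterol and fatty acid synthesis, IkB kinase and DNA replication genes reach to the right, and 4 lists with 0 calls have no bar.

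Of 22 tested cholesterol and fatty acid synthesis genes 4 were higher and 1 lower with siRelB (22.7% called, beside 9.7% of all tested genes), with a median of 0.11. SREBF2, the master regulator of cholesterol synthesis, was at 7.33 with siRelA and 8.13 with siRelB in EBSS, and at 7.33 and 7.96 in mock, higher by 0.71 ± 0.14 (adjusted p = 0.00251). HMGCS1, which makes the precursor of cholesterol, was higher by 0.70 ± 0.13, ACACA, the entry enzyme of fatty acid synthesis, by 0.57 ± 0.11 and SREBF1, the regulator of lipogenic genes, by 0.47 ± 0.13. MSMO1, a late enzyme of cholesterol synthesis, went the other way, by -0.45 ± 0.14 (adjusted p = 0.0391; up to 0.312 in single pairs). Without the siRelA or siRelB EBSS array the adjusted p of SREBF2, HMGCS1 and ACACA rose to 0.104, 0.0788 and 0.107, and that of SREBF1 reached 0.288 in single pairs. The ATF4 and amino acid response list had 4 higher and 0 lower among 32 tested (12.5% called), with a median of 0.05, and the 4 were ATF4 itself (0.54 ± 0.12), the serine synthesis gene PHGDH (0.60 ± 0.11), PCK2 (0.53 ± 0.14) and asparagine synthetase ASNS (0.34 ± 0.10). PHGDH was at 8.66 and 9.17 in EBSS and 8.04 and 8.74 in mock. PHGDH lost the call without either mock array (adjusted p up to 0.0793), ATF4 and PCK2 without any 1 of the 4 (up to 0.213 and 0.377), and ASNS also without the filter, without the trend and on the 4 arrays alone (up to 0.215).

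Vesicle transport genes held several of the widest differences, in both directions, with 3 higher and 4 lower of 34 tested. The called share was 20.6%, beside 9.7% of all tested genes. Besides RAB21 and RAB22A, RAB14 of recycling endosomes was lower by -0.63 ± 0.11, a call lost without either mock array (adjusted p up to 0.122). RAB27B, which docks secretory vesicles, was at 8.10 and 9.02 in EBSS and at 8.85 and 9.95 in mock, higher by 1.01 ± 0.12 (adjusted p = 2.32e-05) in every alternative. Of 44 tested autophagy and lysosome genes 2 were higher and 2 lower (9.09% called, near the 9.7% of all tested genes). The lysosomal protease gene CTSZ was higher by 0.73 ± 0.12 in every alternative, GABARAPL1, of the autophagosome membrane, was higher by 0.58 ± 0.14, and the protease gene CTSB and the saposin precursor gene PSAP were lower by -0.45 ± 0.10 and -0.33 ± 0.08. Single-pair fits took these last 3 to adjusted p of up to 0.287, 0.157 and 0.191, and PSAP also failed on the 4 arrays alone and without the intensity trend (up to 0.111).

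Heat shock genes gave 1 higher and 3 lower calls of 19 tested (21.1% called, beside 9.7% of all tested genes). DNAJB6, a chaperone that holds back protein aggregates, was at 10.4 with siRelA and 9.52 with siRelB in EBSS, and at 10.5 and 9.42 in mock, lower by -0.998 ± 0.109 (adjusted p = 5.39e-06) in every alternative. ERO1A, which forms disulfide bonds, was at 7.87 and 9.00 in EBSS and 8.77 and 9.50 in mock, higher by 0.93 ± 0.13 in every alternative, and it was the only call among 25 tested genes of endoplasmic reticulum chaperones and the unfolded protein response. The glucose transporter gene SLC2A3 was lower by -0.90 ± 0.14 (adjusted p = 0.000269; up to 0.0968 without a mock array). TNRC6A, the partner of Argonaute in silencing by small RNAs, was at 6.52 and 5.73 in EBSS and 7.99 and 6.71 in mock, lower by -1.04 ± 0.14 in every alternative, the only call of 15 tested genes that handle small RNAs. Of 23 tested replication-dependent histone genes 1 was higher and 2 were lower (13% called). Their median was -0.27 in EBSS and 0.25 in mock, and 9 of the 23 had the same sign in each medium. H2BC12 had the widest difference of the list, lower by -1.07 ± 0.15 in every alternative. H4C4 and H4C5 passed the test of a difference between media that is described further on. Histone genes are near copies of each other and their probes may share signal.

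Survival and interferon genes were called at shares of 4.76% to 14.3%, beside 9.7% of all tested genes. Of 14 tested anti-apoptotic genes 0 were higher and 2 lower, namely BIRC2 and BIRC5, and of 21 pro-apoptotic genes CASP2 alone was called (0.45 ± 0.13), calls that single-pair fits took to adjusted p of up to 0.481, 0.218 and 0.388. MCL1, BCL2L1 and XIAP differed by -0.13 ± 0.12, -0.22 ± 0.12 and 0.13 ± 0.17, with adjusted p of 0.601, 0.276 and 0.726. Interferon-stimulated and RNA-sensing genes gave 3 higher and 1 lower calls of 30 (13.3%). IFIT1, which binds foreign RNA, was at 8.80 with siRelA and 8.01 with siRelB in EBSS and at 9.76 and 8.94 in mock, lower by -0.80 ± 0.16 (adjusted p = 0.00256; up to 0.0973 in single pairs). DHX58, IFI35 and the transcription factor IRF3 were higher by 0.50 ± 0.13, 0.48 ± 0.14 and 0.47 ± 0.13, with single-pair adjusted p of up to 0.273, 0.69 and 0.359, and IFI35 also failed without the filter (0.0538). In limma 0 calls fell among 30 respiratory chain, 24 ribosomal protein and 29 RNA export, splicing and translation initiation genes, of which 8, 1 and 8 had an unadjusted p under 0.05.

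Small nucleolar RNA genes, taken here with small nuclear RNA genes, stood out by their counts, a grouping chosen after the values were seen. Of 101 tested, 43 (42.6%) were higher and 0 lower with siRelB in limma (59 and 1 at an unadjusted p under 0.05), beside 5.24% and 4.45% of all tested genes, and 13 were at least 2-fold higher. In EBSS 79 of the 101 were higher with siRelB, and in mock 91. Their median level was 7.42 with siRelA and 7.77 with siRelB in EBSS, and 6.87 and 7.34 in mock. The 86 small nucleolar RNA genes made up most of these calls, with 40 higher (46.5%) and a median difference of 0.45. Of the 15 small nuclear RNA genes 3 were higher (20%). The median difference of these 15 was -0.006, with -0.03 in EBSS and 0.15 in mock, so they did not rise as a class. RNU5D-1, a gene copy of the U5 spliceosomal RNA, was at 10.5 and 11.4 in EBSS and 9.15 and 11.4 in mock, higher by 1.57 ± 0.20 (adjusted p = 3.34e-05). SNORA75, which guides pseudouridylation of ribosomal RNA, was at 5.68 and 7.05 in EBSS and 5.24 and 6.34 in mock, higher by 1.23 ± 0.18, and SCARNA17, a Cajal body RNA, was at 9.85 and 10.7 in EBSS and 8.77 and 10.4 in mock, higher by 1.24 ± 0.13; SCARNA17 is typed as another noncoding RNA and is not among the 101. Both siRelA values of SNORA75 were under the level at which genes were tested. In RNU5D-1, SNORA75 and SCARNA17 the siRelA mock array was the lowest of the 4. SNORA22 was at 7.21 on that array and between 8.96 and 9.53 on the others, higher with siRelB by 1.26 ± 0.21, and its call was lost without either mock array (adjusted p up to 0.223) and under robust moderation (0.0617). Many of these RNAs lie inside host genes or in families of near-identical copies, which the probes may not tell apart.

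**Figure D5:**
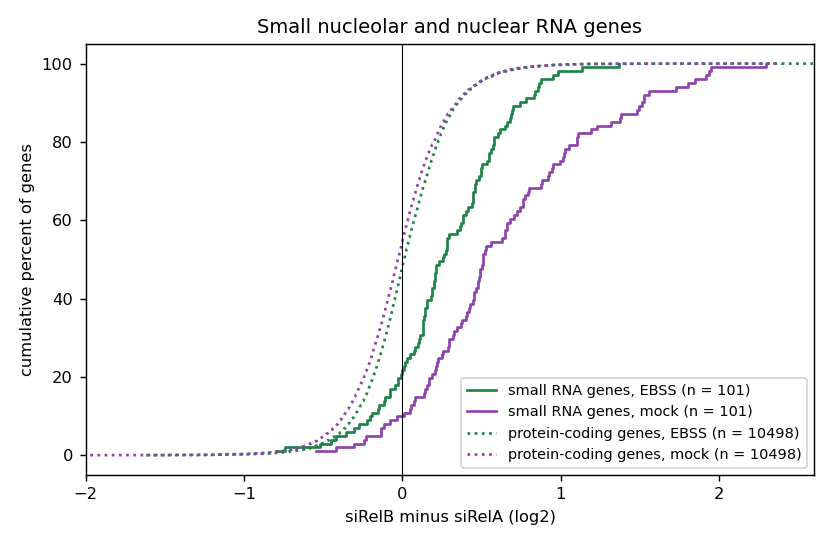
Cumulative percent of genes (y axis) by the difference of siRelB minus siRelA in log2 units (x axis), for 101 small nucleolar and nuclear RNA genes (solid) and 10498 protein-coding genes (dotted), in EBSS (green) and mock (purple). The small RNA curves lie to the right of the protein-coding curves in each medium, and the mock curve lies further right than the EBSS curve.

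A separate term asked whether the difference between siRelB and siRelA was itself different in EBSS and in mock. In limma 17 of 11026 genes (0.154%) passed an adjusted p under 0.05, 16 of them (0.145%) with a lower difference in EBSS and 1 with a higher one; 469 genes had an unadjusted p under 0.05. By type, 6 of the 17 were small nucleolar or nuclear RNA genes (of 101 tested), 7 protein-coding (of 10498 tested) and 4 of other types. RAB6A, a Golgi GTPase, was the 1 gene with a higher difference in EBSS, at 7.74 with siRelA and 8.67 with siRelB in EBSS and at 9.04 and 8.58 in mock, a change of 1.39 ± 0.25 (adjusted p = 0.0218). RNPC3, a protein of the minor spliceosome, was at 6.56 and 5.41 in EBSS and 5.56 and 6.28 in mock, a change of -1.88 ± 0.31 (adjusted p = 0.0117). Both genes thus had opposite signs in the 2 media, and neither was called for the mean difference. COL1A2, with -1.18 in EBSS and -0.12 in mock, changed by -1.07 ± 0.20 (adjusted p = 0.0322). RELA, RELB, IER3, TAP1 and TNFRSF9 were not among the 17. The spread of this term comes from the NUPR1 arrays alone, since each combination of siRNA and medium was measured once, and 0 genes passed without the intensity trend (448 at an unadjusted p under 0.05). In the other settings run for this term the RAB6A call was kept, and the RNPC3 call was lost after quantile normalization as well (adjusted p = 0.0812).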

How the data were processed

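The deposited values are log2 expression values per transcript cluster, produced by the authors with RMA (robust multi-array averaging of background-corrected, quantile-normalized probes); the submitters' processing notes name RMA and limma without versions. The clusters' genome build is not given in the sources used here, so no coordinates are printed for them. Of 28869 clusters (0 missing values) 19310 carried 1 gene symbol, and 19279 were matched by Entrez identifier to GRCh38.p14 gene symbols, giving 18377 genes. The brightest cluster over the 14 arrays stood for each of the 685 genes with several. Genes in the lowest 40% by mean level (under 5.805) were not tested, which left 11026.

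The fit used R 4.3.3, limma 3.58.1 (lmFit, then eBayes with an intensity trend) and data.table (version 1.17.8). It held 12 arrays: the 4 compared, with siRNA and medium as terms, and 8 of the NUPR1 set with their own siRNA and time terms, so that 4 residual degrees of freedom (20.5 after moderation) were shared. An array of the NUPR1 set, siNupr1 at 9 h by source and description, has a title that differs; it was kept as siNupr1. Tests are two-sided, with Benjamini-Hochberg adjustment over all tested genes. The difference between media was a further term (3 residual degrees of freedom). The number of arrays limits the precision. The pipeline was tested on simulated data.

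Named genes were the 5 NF-kB subunit genes, NUPR1 and IER3, those with the 10 highest and 10 lowest called differences that agreed in sign between media, up to 4 called members of each of the 38 gene lists, all called subunits, inhibitors, chemokines and cytokines, and the 5 largest of each direction for the difference between media. Genes that a sentence names without a call, and called members beyond the 4 of a list (KIF23, CDK1, FOXM1, TEAD4, ITGB1, VIM, MSMO1), were chosen after their values were seen. The contrast and the lists were chosen with earlier results of these data known. The alternatives were other samples in the spread, filters, scalings, moderation and cluster rules, a removed trend with gene span, protein-coding genes alone, and each array left out.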

Additional observations from a re-analysis of the deposited data

Results flagged for a closer look

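The difference between siRelB and siRelA changed between EBSS and mock, by the test of that change itself, in 6 of the genes named by rule. RAB6A changed by 1.39 ± 0.25 (limma, adjusted p = 0.0218), from -0.47 in mock to 0.93 in EBSS. RNPC3 changed by -1.88 ± 0.31 (adjusted p = 0.0117), from 0.72 in mock to -1.15 in EBSS. ZNF644, a zinc finger gene, changed by -1.45 ± 0.27 (adjusted p = 0.0322), from 0.94 to -0.51. It lay at 4.80 and 4.29 in EBSS and at 5.32 and 6.26 in mock, so 3 of its 4 values are dim. The other 3 genes are small RNA genes: RNU5D-1 changed by -1.44 ± 0.24 (adjusted p = 0.0117), SNORD116-14 by -1.79 ± 0.30 (adjusted p = 0.0123) and SNORD13P3, a pseudogene of a small nucleolar RNA, by -1.75 ± 0.26 (adjusted p = 0.00533). In these 3 the mock difference was positive, at 2.29, 1.80 and 1.73, and the EBSS difference was 0.85, 0.02 and -0.02. On the siRelA mock array SNORD116-14 was at 6.78 and SNORD13P3 at 7.85, below the other 3 arrays, where they lay between 8.58 and 8.87 and between 9.58 and 10.5. All 6 calls were lost without the intensity trend, with adjusted p between 0.112 and 0.266, and those of RNPC3, ZNF644, RNU5D-1 and SNORD116-14 also after quantile normalization (0.0584 to 0.203). The ZNF644 call was lost as well without the filter on dim genes, after median centring and with protein-coding genes alone.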

How the results depend on the processing

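The 1069 calls became between 848 and 1462 under the other settings of all 4 arrays. The count was 848 without the filter on dim genes and 1462 without the siNupr1 9 h array in the spread. Every called gene that was still tested kept its sign in these settings. The sign could change only where values were rescaled, averaged over clusters or freed of the span trend. The other settings left each difference as it was. Without 1 of the 4 arrays the count ranged from 246 (without siRelA mock) to 416 (without either EBSS array), with 249 without siRelB mock, and the sign changed in 3 genes without a mock array; SNORD13P3 then was at -0.0167, against 1.73 without an EBSS array. The 17 calls for the difference between media became 11 without the filter, 6 after quantile normalization, 0 without the intensity trend and 3 with protein-coding genes alone, the last an alternative chosen after seeing the data; the cause was not tested. Of 106 called named genes 31 were called in every alternative, 51 lost the call only in single-pair fits and 24 in other settings too. The siRNAs are paired by medium in the fit itself, and the labels carry no replicate numbers that could form a further block. Dim genes near the level of 5.805 limit what can be called, and 1 array per combination leaves no replicate error of its own.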

Other observations

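In 5 further gene lists between 3.70% and 16.1% of the tested members were called in either direction, against 9.7% of all tested genes. Of 30 tested cyclin-dependent kinase inhibitors and p53 targets 3 were higher and 1 lower with siRelB, the latter being CDKN1B as given above. RRM2B, the p53-induced ribonucleotide reductase subunit, was at 5.72 with siRelA and 6.29 with siRelB in EBSS and at 6.24 and 7.02 in mock. It was higher by 0.68 ± 0.14 (limma, adjusted p = 0.00447), a call lost without either mock array. Its siRelA EBSS value was under the level at which genes were tested. TP53I3, an oxidoreductase gene, was higher by 0.52 ± 0.12 and the DNA repair gene XPC by 0.42 ± 0.13, and both calls were lost without any 1 of the 4 arrays (adjusted p up to 0.244 and 0.523), that of XPC in 3 other settings too. Of 31 tested ribosome biogenesis genes 2 were higher and 3 lower. RRP9, of the processing complex of ribosomal RNA, was at 8.56 and 9.39 in EBSS and 8.41 and 9.09 in mock, higher by 0.75 ± 0.14 (adjusted p = 0.00113; up to 0.0634 without an EBSS array), while the nucleolar gene NOLC1 was lower by -0.49 ± 0.11 (adjusted p = 0.0051; up to 0.103 in single pairs).

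Of 32 tested glycolysis and hypoxia genes 1 was higher and 2 lower. P4HA1, which hydroxylates collagen, was higher by 0.62 ± 0.14, with 0.93 in EBSS and 0.30 in mock, and its call was lost without either EBSS array (adjusted p up to 0.445). The pyruvate kinase gene PKM was lower by -0.22 ± 0.07 (adjusted p = 0.0452; up to 0.284). Among 27 tested NRF2 and antioxidant genes the pentose phosphate gene PGD alone was called, higher by 0.37 ± 0.09 (adjusted p = 0.00855; up to 0.18), and among 10 metallothionein and zinc genes the zinc exporter gene SLC30A1 alone, lower by -0.45 ± 0.12 (adjusted p = 0.0179; up to 0.214).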
